A study of Zea mays with 27 samples.

Results

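Adult maize leaf of 3 genotypes, bz2, mutator and B,Pl, was compared with b,pl leaf after greenhouse treatment with supplementary UV-B, on 1 cDNA array with 2 colours per genotype. These are 3 of the 27 arrays of a study of maize lines with different flavonoid content, chosen by genotype and treatment alone. On each of the 3 arrays the UV-B leaf was labelled with Cy5 and given 8 h of UV-B, and the other channel held Cy3-labelled b,pl leaf grown under the plastic that the labels call CA. The arrays carry 16200 spots, 3 consecutive spots for each of 5400 cDNAs, and 5365 cDNAs had a value on all 3 arrays. The groups set beside them, each hybridised against b,pl CA, were bz2 CA and mutator CA (1 array each), B,Pl CA (2 arrays), b,pl UV-B after 8 h (2 arrays) and b,pl kept in the greenhouse without UV-B (1 array).

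Supplementary UV-B, the greenhouse and the genotype all differ between the channels of each of the 3 arrays. Their contributions to a ratio cannot be told apart within one array, and no greenhouse array without UV-B was analysed here for bz2, mutator or B,Pl. The labels say nothing of the number of plants behind an RNA sample or of whether arrays came from separate plants. The spread between arrays may therefore be technical, and with 1 array per genotype no value below has a replicate check of its own. In whole leaf, fewer cells of a type and less RNA per cell cannot be told apart, and a 2-colour ratio gives no level, so leaf cell type markers could not be checked as levels.

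UV-B is the most energetic part of sunlight that reaches leaves, and it damages DNA, proteins and membranes. Flavonoids absorb it, and maize lines differ in how much of these pigments they make. B and Pl are transcription factors that switch on the anthocyanin branch of flavonoid synthesis in leaf tissue, and the recessive b,pl combination lacks that activation. The product of Bz2 is a glutathione S-transferase without which finished anthocyanin does not reach the vacuole. Mutator is a family of transposable elements, and the labels say no more of the line called mutator.

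Each value below is the mean log2 ratio of a cDNA's 3 spots with the array's median over cDNAs taken off, so 0 is the middle cDNA of that array. A difference of 1 on this scale is a 2-fold difference. The labels give the dyes of each array but not which dye is the numerator of the ratio. A positive value means more RNA in the UV-B leaf than in b,pl CA leaf if the ratio is Cy5 over Cy3, and less if it is the reverse, and no direction of change is stated for that reason. The 3 arrays have the same orientation and so run the same way among themselves, and in any difference between 2 of them the dye effect cancels. The b,pl CA channel cancels as far as it held the same RNA, which the labels do not state. For the other groups, values from arrays with reversed dyes were turned in sign before they were set beside these. On bz2 CA and mutator CA the labels conflict about the dyes, and the titles were followed. If the titles are wrong there, every bz2 CA and mutator CA value below turns in sign.

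The 3 arrays were complete to a similar degree, with 15975 to 16011 of 16200 spots measured. Before centring their medians were 0.13 for bz2, 0.07 for mutator and -0.02 for B,Pl. The bz2 array had the narrowest spread over cDNAs, with an interquartile range of 0.34 against 0.49 for mutator and 0.56 for B,Pl. Of the 5400 cDNAs, 811 have a gene in the platform annotation, for 213 genes, and none of 14 flavonoid genes looked for (bz2, b1 and pl1 among them) was on that list, so the genotypes could not be checked by their own genes. Many named cDNAs belong to gene families with near-identical members, and their probes cannot be taken as specific to 1 member. Among arrays of the same orientation against b,pl CA the lowest Pearson correlation with any of the 3 was -0.28, between mutator UV-B and b,pl under the plastic labelled PE (replicate 1).

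The mutator and B,Pl arrays resembled each other more than either resembled bz2. Over 5365 cDNAs the Spearman correlation was 0.64 for mutator with B,Pl, 0.33 for bz2 with mutator and 0.13 for bz2 with B,Pl, and the Pearson values were 0.47, 0.27 and 0.08. These correlations run across cDNAs, which are not independent replicates, and all 3 arrays share the b,pl CA channel and the dye orientation. With the dye term of the model taken off, the Spearman values were 0.70, 0.48 and 0.30 in the same order of pairs. With each genotype's own CA value taken off, they were 0.09, 0.36 and 0.10. In that form the pair of mutator and B,Pl, at 0.09, no longer stood above the others, and bz2 with mutator was highest. The CA values taken off were not alike in kind. For bz2 and mutator they came from 1 array each, and the dye effect cancels if the titles of those arrays hold. For B,Pl they were the mean of 2 arrays of opposite orientation, so the dye effect stays in. B,Pl CA replicate 2 also had a wide spread over cDNAs (SD 1.22). The part of these limits in the lower correlations was not tested.

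**Figure D1:**
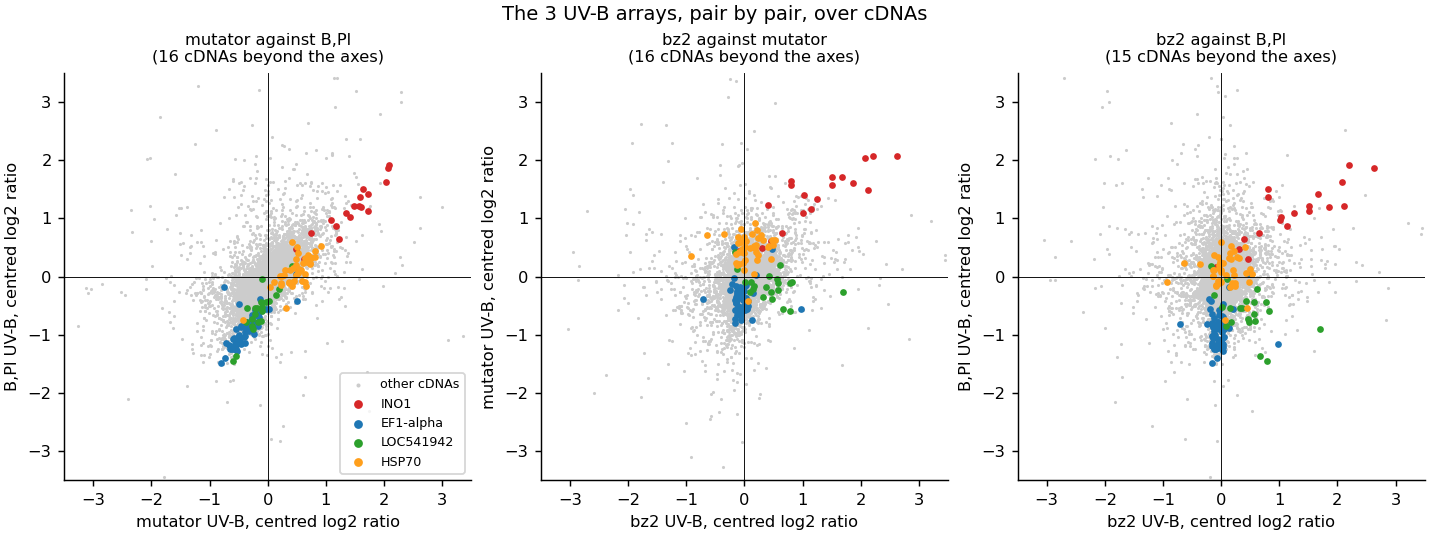
Centred log2 ratio of each cDNA on one UV-B array against another, for mutator and B,Pl, bz2 and mutator, and bz2 and B,Pl. Grey points are cDNAs, and the coloured points are those of INO1 (19), elongation factor 1-alpha (58), LOC541942 (21) and HSP70 (43). The cloud is tilted for mutator with B,Pl (Spearman 0.64) and nearly round for bz2 with B,Pl (0.13), while INO1 lies at upper right in all 3 panels.

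To find cDNAs that moved alike, those in the top 5% or the bottom 5% of all 3 arrays were taken. The top 5% began at 0.65 on the bz2 array, 0.75 on mutator and 0.89 on B,Pl, and the bottom 5% ended at -0.59, -0.70 and -0.80. There were 28 cDNAs in the top 5% of all 3 arrays (0.522% of 5365) and 13 in the bottom 5% (0.242%). Of the 28, 15 were named, and 13 of these were cDNAs of a single gene, INO1. The other two were the aquaporin genes PIP1-1 and PIP1-3, with 1 cDNA each. Of the 13 negative cDNAs only pdh2 was named.

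The rule set these values, and they are given as a description. The 28 positive cDNAs had median values of 1.04 on bz2, 1.36 on mutator and 1.21 on B,Pl. On the CA arrays of the same genotypes their medians were -0.21 for bz2, -0.25 for mutator and -0.16 and 0.83 for B,Pl replicates 1 and 2. The medians thus stood below 0 on the CA arrays except on B,Pl CA replicate 2. Single members stood well above 0 there, and the most extreme of the 28, an unnamed cDNA at spot 12193, read 1.21 on bz2 CA, 5.71 on mutator CA and 2.38 on B,Pl CA replicate 1. Their medians were 0.85 and 1.35 on the 2 arrays of b,pl at UV-B. The median was 1.54 on b,pl in the greenhouse without UV-B, higher than on each UV-B array. The 13 negative cDNAs had medians of -0.76, -1.11 and -1.16 on bz2, mutator and B,Pl, and -0.88 on b,pl without UV-B. On the CA arrays their medians were 0.14 for bz2, -0.19 for mutator, and -0.32 and -0.76 for B,Pl. On b,pl at UV-B they were -0.41 and -0.65. The negative set was thus below 0 under CA too, except on bz2 CA.

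The 3 spots of these cDNAs agreed closely in most cases. All 3 spots were measured on all 3 arrays for 26 of the 28 positive cDNAs, and in 19 of the 28 the SD of the spots was at most 0.1 on each array. The last cDNA inside the positive rule was an unnamed one at 0.75 on mutator, and the first ones outside included an INO1 cDNA at 1.14, 1.17 and 0.88, which missed on B,Pl. At the negative edge pdh2 was just inside with -0.60 on bz2, and an unnamed cDNA just outside had -0.94, -1.22 and -0.797.

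**Figure D2:**
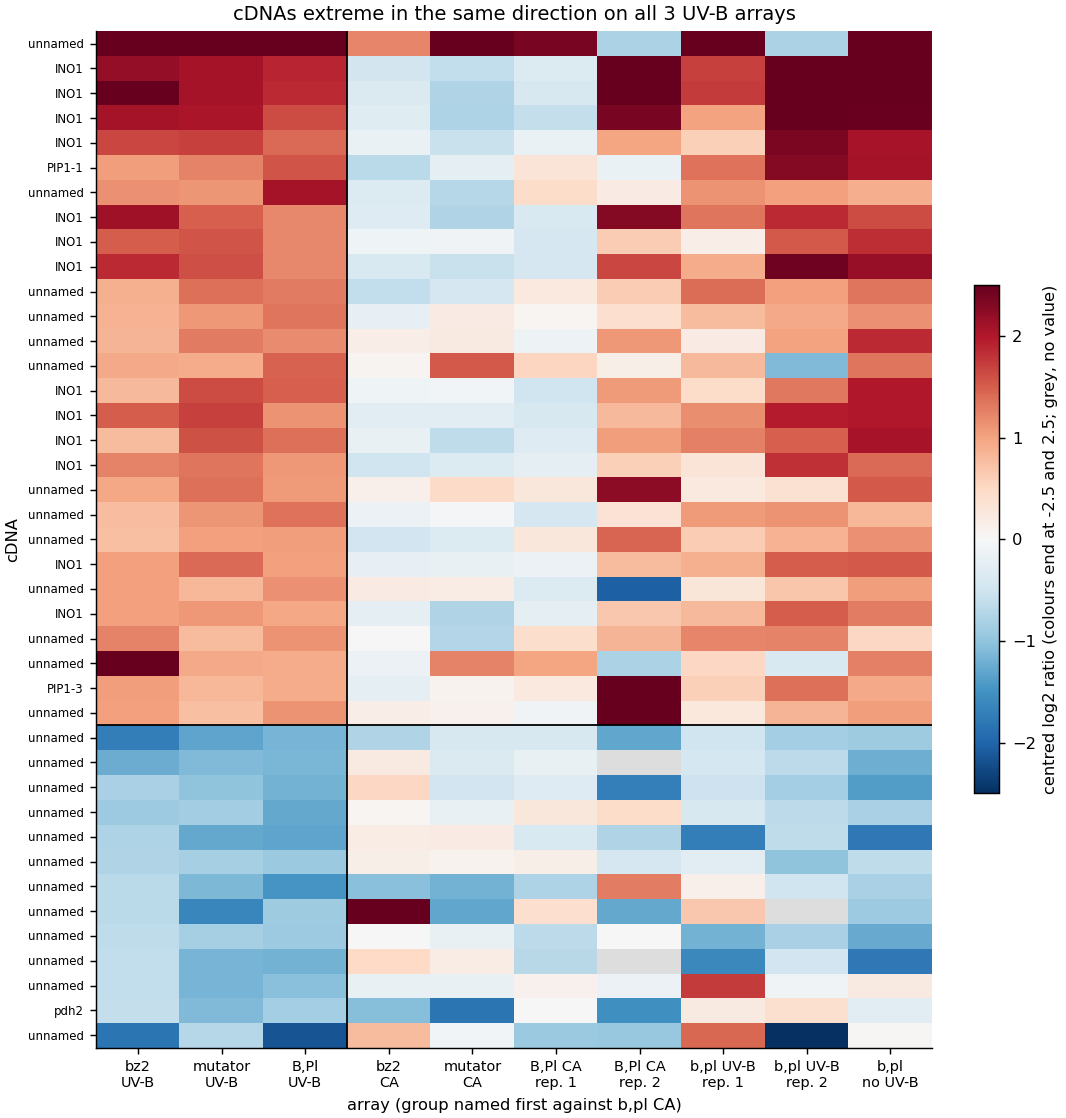
Centred log2 ratio of the 41 cDNAs (rows) in the top 5% or bottom 5% of all 3 UV-B arrays, on those arrays and on 7 arrays of other groups (columns). Colour runs from blue (negative) to red (positive), and the lines separate the 3 UV-B arrays from the rest and the 28 positive from the 13 negative cDNAs. The bz2 CA, mutator CA and B,Pl CA replicate 1 columns are pale for INO1, and the column of b,pl without UV-B is red for most of the 28.

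INO1 encodes inositol phosphate synthase, which turns glucose 6-phosphate into inositol phosphate, the first step of inositol synthesis. Inositol in turn feeds the making of phosphoinositide signalling lipids, of phytic acid and of galactinol. INO1 had the highest median of the 36 genes with 5 or more cDNAs on each of the 3 arrays. Its 19 cDNAs ran from -0.09 to 2.62 with a median of 1.14 on bz2, from 0.45 to 2.08 with a median of 1.49 on mutator, and from 0.17 to 1.91 with a median of 1.12 on B,Pl. All but 1 cDNA on the bz2 array were positive.

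The genotypes differed from each other in INO1 by less than the spread between arrays. From all 27 arrays the SD of a difference of 2 arrays was 0.92 for the median of INO1, and the median difference over cDNAs was 0.28 between mutator and B,Pl, 0.16 between bz2 and B,Pl and -0.09 between bz2 and mutator. The mutator value was nevertheless above the B,Pl value for 19 of 19 cDNAs, which share 1 gene and the same pair of arrays and are not replicates.

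Under CA the same cDNAs were negative on 3 of 4 arrays. The INO1 median was -0.21 on bz2 CA, where 18 of 19 cDNAs were negative, and -0.34 on mutator CA, where 19 of 19 were. On B,Pl CA it was -0.31 on replicate 1 and 0.82 on replicate 2, an array with reversed dyes and the second widest spread over cDNAs of the 27 (SD 1.22). The 2 B,Pl CA arrays therefore did not overlap for this gene, with a highest value of -0.12 on one and a lowest of 0.34 on the other. The dye term of the model had a median of -0.33 over the INO1 cDNAs, similar in size to the 3 negative CA medians. Those 3 arrays have, by their titles, the same dye orientation, and the part of dye in their values was not tested. For b,pl, the INO1 median was 0.71 on UV-B replicate 1, 1.53 on UV-B replicate 2, which has reversed dyes, and 1.63 in the greenhouse without UV-B. INO1 was thus positive on the b,pl arrays of both dye orientations and on the greenhouse array without UV-B.

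**Figure D3:**
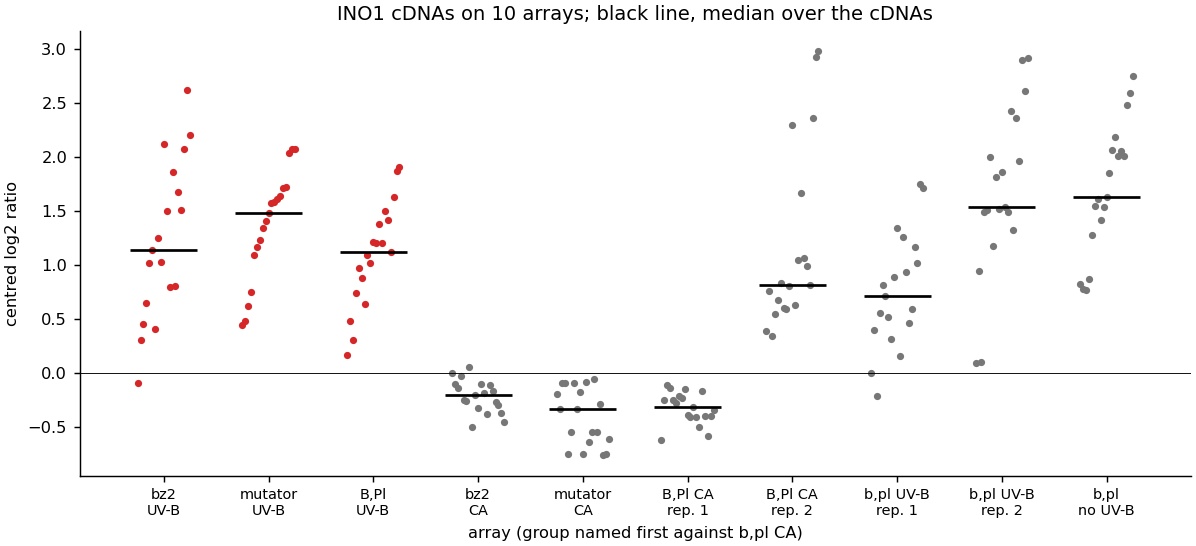
Centred log2 ratio of the 19 INO1 cDNAs on the 3 UV-B arrays (red) and on 7 arrays of other groups (grey), with the median over cDNAs as a black line. The medians of 1.14, 1.49 and 1.12 on the UV-B arrays lie between those of the 2 b,pl UV-B arrays (0.71 and 1.53), below b,pl without UV-B (1.63), and above bz2 CA, mutator CA and B,Pl CA replicate 1 (-0.21, -0.34 and -0.31).

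The mean of the 3 genotypes was tested with a linear model per cDNA over all 27 arrays, with a term per group and one for dye. It used limma's moderated variances and Benjamini-Hochberg adjustment over all cDNAs. A mean can be carried by 1 genotype, so these tests do not show that a value is shared by all 3. For the mean of the 3 genotypes at UV-B minus b,pl CA, 1 of 5365 cDNAs passed at an adjusted p of 0.05 (0.0186%), and 664 (12.4%) had an unadjusted p under 0.05. The 1 cDNA, which has no gene name and begins at spot 3049, rested on a single extreme spot of the bz2 array, described below. No named cDNA passed. The smallest adjusted p of a named cDNA was 0.126, shared by INO1, PIP1-1, PP2C and tua4 cDNAs.

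INO1 gave 17 of 19 cDNAs with a positive value at an unadjusted p under 0.05 in that comparison, where 6.8% of all cDNAs did. The median value over its cDNAs was 1.57 with a median SE of 0.38. The count is not independent evidence, since INO1 was chosen with these arrays known. For the mean of UV-B minus own CA over the 3 genotypes, 16 of 19 INO1 cDNAs were positive at an unadjusted p under 0.05 (background 3.83%), with a median of 1.59 and a median SE of 0.47. None was negative, where 1.42% of all cDNAs were. Without B,Pl CA replicate 2 the second count was 17, and with the sign of bz2 CA and mutator CA turned it was 7. No INO1 cDNA had an unadjusted p under 0.05 for the 3 genotypes against b,pl at UV-B, where the median was 0.34 with a median SE of 0.57. The same held against b,pl without UV-B, where it was -0.46 with a median SE of 0.70.

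Plasma membrane aquaporins, which let water through the cell membrane, also had positive values on the 3 arrays. The PIP1-1 cDNA read 1.04 on bz2, 1.25 on mutator and 1.58 on B,Pl. On CA it read -0.68 for bz2, -0.22 for mutator, and 0.33 and -0.17 for B,Pl, so each UV-B value was above every CA value. On b,pl the PIP1-1 cDNA read 1.36 and 2.30 at UV-B and 2.07 without UV-B, the last above its value on each of the 3 UV-B arrays. Its value for the 3 genotypes minus b,pl CA was 1.51 (SE 0.32), with a limma adjusted p of 0.126. PIP1-3 had medians over 7 cDNAs of 0.75, 0.66 and 0.54, second of the 36 genes on bz2 and mutator. The 6 cDNAs of PIP2-1 had lower medians of 0.23, 0.11 and 0.22. For the 3 genotypes minus b,pl CA, 5 of the 17 aquaporin cDNAs were positive at an unadjusted p under 0.05 (background 6.8%) and none was negative (background 5.57%).

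Beside INO1 and PIP1-3, sam2 was the 1 gene of the 36 with a median above 0.2 on all 3 arrays. It encodes S-adenosylmethionine synthetase. S-adenosylmethionine synthetase makes the methyl donor of the cell, which is used for lignin, ethylene, polyamines and DNA methylation. Its 32 cDNAs had medians of 0.44 on bz2, 0.21 on mutator and 0.47 on B,Pl, and 15 of 32 were positive at an unadjusted p under 0.05 against b,pl CA (background 6.8%). Without the dye term 5 of 32 were. With own CA taken off, 16 of 32 were positive (background 3.83%), with a median of 0.70 and a median SE of 0.31. That count was 0 and its median 0.06 with the sign of bz2 CA and mutator CA turned, so it rests on the dye titles of those arrays. No sam2 cDNA passed after adjustment, and the smallest limma adjusted p in the second comparison was 0.399.

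On the negative side, sucrose synthase sus1 and the linker histones were low on all 3 arrays. Sucrose synthase splits sucrose for use in sink tissues and phloem. The medians of its 11 cDNAs were -0.61 on bz2, -0.37 on mutator and -0.18 on B,Pl, with an SD between arrays of 0.24. Its bz2 CA median was -0.39, near the bz2 UV-B value. None of the 11 had an unadjusted p under 0.05 for the 3 genotypes against b,pl CA. Linker histones H1, which bind DNA between nucleosomes, gave medians over 63 cDNAs of -0.10, -0.24 and -0.25, and the bz2 value turned to 0.04 without centring.

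The pdh2 cDNA that was negative on all 3 arrays differed in its CA values. The pdh2 gene encodes a subunit of pyruvate dehydrogenase, which feeds acetyl-CoA into mitochondrial respiration. The 3 pdh2 cDNAs had medians of -0.83 on bz2, -0.87 on mutator and -0.64 on B,Pl at UV-B. Under CA the medians were -1.66 for bz2, -1.83 for mutator, and -0.29 and -1.24 for B,Pl. For bz2 and mutator the CA values were thus further from 0 than the UV-B values. INO1 instead had negative medians on bz2 CA and mutator CA, of about the size of its dye term, and positive ones at UV-B. On b,pl the pdh2 cDNA that met the rule read 0.23 and 0.40 at UV-B and -0.27 without UV-B. The remaining pdh2 cDNAs read 0.10 and -0.54 on b,pl UV-B replicate 1, and 0.17 and 0.46 on replicate 2. Without UV-B they read 0.19 and 0.21.

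Across the 36 genes with 5 or more cDNAs, the distance between the highest and the lowest of the 3 genotype medians exceeded the SD of a difference of 2 arrays for 18 genes and exceeded 2 such SDs for 6. These 6 were LOC541942, ANT1, elfa2, GAPC2, hsp70-4 and CDPK. A distance between the extremes of 3 values is wider than a chosen difference of 2, so no test is attached to the count.

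**Figure D4:**
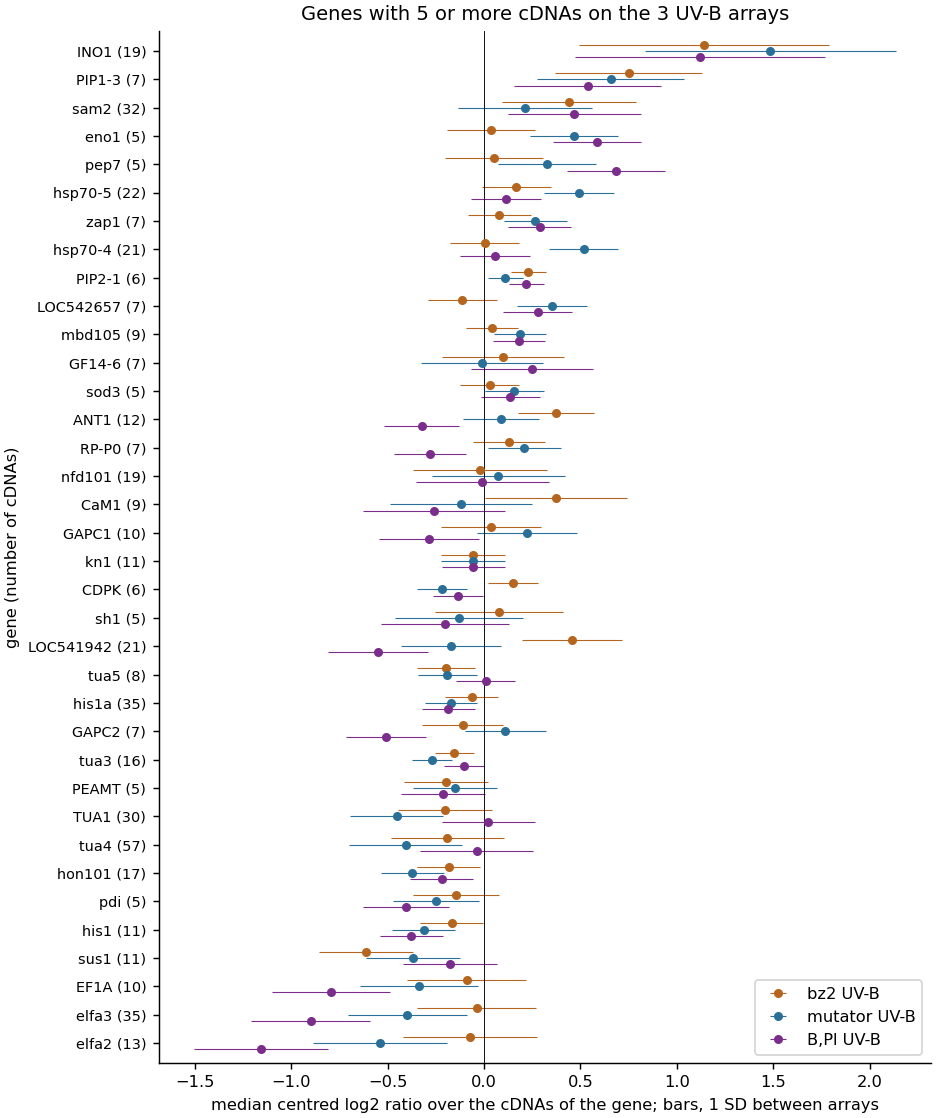
Median centred log2 ratio on the bz2, mutator and B,Pl UV-B arrays (coloured points) of the 36 genes with 5 or more cDNAs, ordered by the mean of the 3 medians. Bars show 1 SD between arrays for the gene's median, from the residuals of the model over 27 arrays. INO1 is at the top on all 3 arrays, and the elongation factor genes elfa2, elfa3 and EF1A at the bottom are spread from near 0 on bz2 to between -0.79 and -1.16 on B,Pl.

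An ordered difference between the genotypes was seen for elongation factor 1-alpha, which brings aminoacyl-tRNA to the ribosome. Its 58 cDNAs belong to elfa2, elfa3 and EF1A. They ran from -0.71 to 0.97 with a median of -0.06 on bz2, from -0.80 to 0.51 with a median of -0.41 on mutator, and from -1.48 to 0.05 with a median of -0.92 on B,Pl. The bz2 median is near the middle of its array and turned to 0.08 without centring.

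Between bz2 and B,Pl the EF1-alpha cDNAs differed by a median of 0.88, and 58 of 58 were higher on bz2, with an SD of a difference of 2 arrays of 0.45. The neighbours in the order differed less. The bz2 and mutator arrays differed by 0.39, within that SD, and mutator and B,Pl by 0.55, slightly above it. For the mean of 3 genotypes minus b,pl CA, 38 of 58 cDNAs were negative and 1 positive at an unadjusted limma p under 0.05. Of all cDNAs, 5.57% were negative there. Without the dye term 25 of the 58 were negative. For B,Pl against the other two genotypes 1 of 58 was negative at an unadjusted p under 0.05, near the background of 0.876%, and none had an adjusted p under 0.05.

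The own CA values placed the 3 genotypes in another order. The EF1-alpha median was 0.22 on bz2 CA, -0.49 on mutator CA, and 0.26 and -0.19 on B,Pl CA. The mutator value was therefore about as negative under CA as at UV-B. For B,Pl at UV-B minus B,Pl CA, 35 of 58 cDNAs were negative at an unadjusted p under 0.05 (background 2.81%), with no cDNA passing after adjustment. On b,pl without UV-B the median was -0.23, closer to 0 than the B,Pl UV-B value.

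A gene without a stated product, LOC541942 (also csu503(met) in the gene table), was on the opposite side in bz2. Its 21 cDNAs ran from -0.17 to 1.70 with a median of 0.45 on bz2, from -0.60 to 0.42 with a median of -0.17 on mutator, and from -1.45 to 0.17 with a median of -0.55 on B,Pl. The bz2 value was above the B,Pl value for 20 of 21 cDNAs, by a median of 0.96 against an SD of a difference of 0.37. For bz2 minus the mean of the other two, 7 of 21 were positive at an unadjusted p under 0.05 (background 1.55%) and none was negative (background 1.16%), and the smallest limma adjusted p was 0.722.

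The same order of genotypes was seen for bz2 and mutator under CA. LOC541942 had a median of 0.34 on bz2 CA and -0.24 on mutator CA, and of -0.14 and 0.23 on B,Pl CA. On b,pl the LOC541942 medians were -0.87 and -0.43 on the 2 UV-B arrays and -1.51 without UV-B, so the second UV-B array lay between the mutator and B,Pl UV-B values. Against b,pl without UV-B, 13 of 21 cDNAs of the 3 genotypes were positive at an unadjusted p under 0.05, where 0.672% of all cDNAs were. The smallest limma adjusted p there was 0.968, with 0 of 5358 cDNAs called and 77 at an unadjusted p under 0.05.

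ANT1, the adenine nucleotide translocator that exchanges ATP for ADP across the inner mitochondrial membrane, gave a similar picture. Its 12 cDNAs had medians of 0.37 on bz2, 0.09 on mutator and -0.32 on B,Pl. All 12 were higher on bz2 than on B,Pl, and all 12 higher on mutator than on B,Pl, by medians of 0.73 and 0.64 against an SD of a difference of 0.28. For B,Pl minus the mean of the other two, 4 of 12 were negative at an unadjusted p under 0.05 (background 0.876%), or 2 of 12 without the dye term, and the smallest limma adjusted p was 0.730. On CA the medians were 0.16 for bz2, -0.40 for mutator, and 0.15 and -0.04 for B,Pl. On b,pl the ANT1 medians were 0.14 and -0.20 at UV-B. Without UV-B the b,pl median was -0.36, near the B,Pl UV-B value.

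Calmodulin CaM1, a calcium sensor, had medians over 9 cDNAs of 0.37, -0.12 and -0.26 on bz2, mutator and B,Pl. The SD of a difference was 0.52 for this gene, wider than for ANT1. The median difference of bz2 from B,Pl over the 9 cDNAs was 0.65, and bz2 was higher in 7 of them. The enolase genes, of the glycolytic step before pyruvate kinase, moved in different ways. The 5 cDNAs of eno1 had medians of 0.04, 0.47 and 0.59, and the 4 cDNAs of eno2 had 0.27, -0.33 and -0.80. Cytosolic glyceraldehyde 3-phosphate dehydrogenase was lower on B,Pl, with medians of 0.03, 0.22 and -0.28 for GAPC1 and -0.11, 0.11 and -0.51 for GAPC2. The bz2 value of GAPC2 turned to 0.02 without centring.

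Photosynthesis cDNAs stood the other way from EF1-alpha. The 8 cDNAs of this list come from Lhcb5-2, a chlorophyll-binding protein of the light-harvesting antenna, pep7, a phosphoenolpyruvate carboxylase, and fnr1, a ferredoxin reductase. They had medians of 0.03 on bz2, 0.42 on mutator and 0.71 on B,Pl, and 8 of 8 were positive on mutator and on B,Pl. All 8 were lower on bz2 than on B,Pl, by a median of 0.47 against an SD of a difference of 0.35.

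The 2 Lhcb5-2 cDNAs showed the widest values of the photosynthesis list. One read -1.82 on bz2 (spot SD 1.28), 1.12 on mutator and 1.57 on B,Pl, and the other read 0.11, 0.99 and 1.44. On CA they were near -0.2 for bz2, at -0.20 and -0.19, and 1.03 and 0.94 for mutator. On B,Pl CA they were 0.41 and 0.51 on replicate 1 and -0.47 and -0.12 on replicate 2. On b,pl at UV-B they were 0.48 and 0.95 on replicate 1 and 0.27 and -0.03 on replicate 2. On b,pl without UV-B they were 1.57 and 1.43. The B,Pl values of Lhcb5-2 thus lay near those of b,pl in the greenhouse without UV-B. The mutator values lay between those and b,pl UV-B replicate 1, and were about as high under CA. The pep7 medians over 5 cDNAs were 0.05, 0.33 and 0.68. Of the 8 cDNAs, 4 were positive at an unadjusted p under 0.05 for the 3 genotypes minus b,pl CA (background 6.8%) and none negative (background 5.57%), and 2 were positive with arrays scaled to the same spread.

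HSP70 chaperones, which hold and refold other proteins, stood out on the mutator array. The 43 cDNAs of hsp70-4 and hsp70-5 ran from -0.92 to 0.53 with a median of 0.03 on bz2, from -0.42 to 0.92 with a median of 0.50 on mutator, and from -0.75 to 0.60 with a median of 0.11 on B,Pl. On mutator 42 of 43 were positive. The mutator value was above the bz2 value for 40 of 43 cDNAs and above the B,Pl value for 41 of 43, by medians of 0.41 and 0.39, against an SD of a difference of 0.26. On mutator CA the median was 0.05. On b,pl without UV-B it was 0.59, with 42 of 43 positive, and it was 0.07 and 0.15 on b,pl at UV-B. For mutator minus the mean of the other two, 2 of 43 were positive at an unadjusted p under 0.05 (background 0.336%), or 1 of 43 without the dye term, and the smallest limma adjusted p was 1.00.

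Alpha-tubulins, subunits of microtubules, were lowest on mutator. The 115 cDNAs had medians of -0.18 on bz2, -0.36 on mutator and -0.04 on B,Pl, and 109 of 115 were lower on mutator than on B,Pl, by a median of 0.35 against an SD of a difference of 0.31. TUA1 had -0.20, -0.45 and 0.02 and tua4 had -0.19, -0.41 and -0.04. For mutator minus the mean of the other two, 3 of 115 were negative at an unadjusted p under 0.05 (background 0.634%). On mutator CA the alpha-tubulin median was 0.02. On b,pl without UV-B it was -0.29, with 91 of 115 negative, and it was 0.30 and 0.06 on b,pl at UV-B. One tua4 cDNA read -0.12, -1.81 and -0.53, and its value for mutator minus the mean of the other two was -1.49 (SE 0.36, limma adjusted p 1.00). Ribosomal protein cDNAs, 15 in all, had medians of 0.05, 0.13 and -0.28, lowest of the 3 on B,Pl. The 7 cDNAs of RP-P0 had 0.13, 0.21 and -0.28. On b,pl the ribosomal protein medians were lower still at UV-B, at -0.60 and -0.48, and 0.12 without UV-B.

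**Figure D5:**
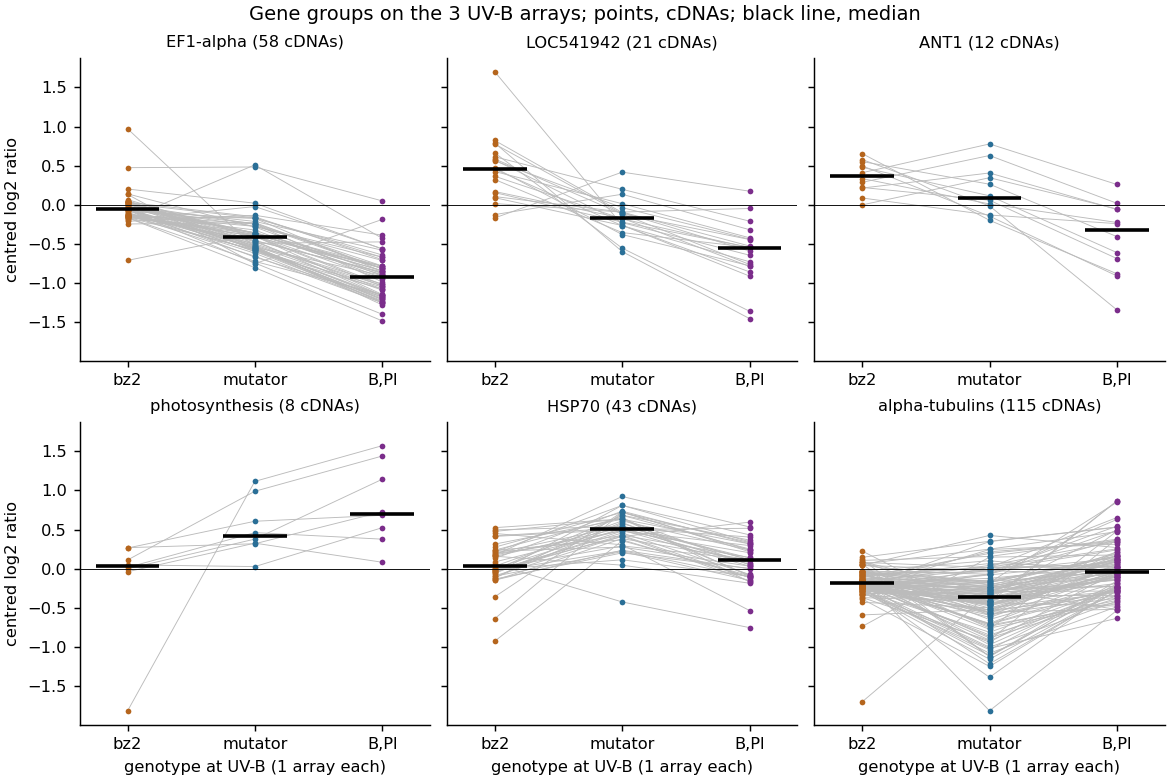
Centred log2 ratio of each cDNA (points, joined by grey lines) on the bz2, mutator and B,Pl UV-B arrays for EF1-alpha, LOC541942, ANT1, the photosynthesis list, HSP70 and alpha-tubulins. Black lines are medians. EF1-alpha, LOC541942 and ANT1 step down from bz2 to B,Pl, photosynthesis steps up, HSP70 peaks on mutator at 0.50, and alpha-tubulins are lowest there at -0.36.

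Other lists lay near 0 on all 3 arrays. The 27 cDNAs of histone-modifying and silencing enzymes had medians of 0.01, 0.05 and 0.03, the 42 of homeobox and MADS factors -0.01, 0.07 and 0.09, and the 18 of glutathione-linked and antioxidant enzymes 0.05, 0.04 and -0.05. The last list includes the class of enzyme that Bz2 belongs to. The meristem marker kn1 had a median over 11 cDNAs of -0.06 on each array. Without centring it was positive on bz2, at 0.08, and on mutator, at 0.02.

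cDNAs that stood out on 1 array were taken as those in its top or bottom 5% that lay in the middle 50%, from the 25th to the 75th percentile, of both others. The bz2 array gave 31 positive (0.578% of 5365) and 50 negative (0.932%), the mutator array 6 (0.112%) and 20 (0.373%), and the B,Pl array 24 (0.447%) and 12 (0.224%). No replicate stands behind any of these. The limits are percentiles of each array, so the counts do not depend on its spread. The same rank stands for a smaller value on bz2, whose spread was narrowest. The rule for bz2 asks mutator and B,Pl, the pair of arrays that correlated most, to lie in the middle 50% together. The part of this in the counts was not tested.

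Many of these values rested on spots that disagreed. The SD of the 3 spots on the array concerned was over 0.5 for 18 of the 24 positive cDNAs of B,Pl, for 11 of 31 positive and 23 of 50 negative cDNAs of bz2, and for 4 of the 20 negative cDNAs of mutator. It was at most 0.1 for 14 of those 20, for 13 and 9 of the bz2 cDNAs, and for 1 of the 24. The negative cDNAs of mutator were thus the set with the closest spots, and the positive ones of B,Pl the set with the widest.

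On bz2 the named positive cDNAs were led by pk8-a, with 2.33 on 1 measured spot, against -0.02 on mutator and 0.25 on B,Pl. The 3 cDNAs of LOC541999, a gene with no product in the gene table, all met the rule. They read 1.14, 0.71 and 0.67 on bz2 with spot SDs of at most 0.08, and between -0.17 and 0.12 on the others. They were as high on bz2 CA, at 1.08, 1.02 and 0.76. The value of LOC541999 on bz2 was therefore alike under CA and at UV-B. MFS18 read 1.05 on bz2 and -0.08 on bz2 CA, and GOS2, a translation initiation factor, read 0.91 and -0.41. One cDNA each of his1a and pcna2 completed the named list, at 0.67 and 0.66.

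Of the 9 named negative cDNAs on bz2, the largest values had wide spots. They were sod3 at -1.65, a manganese superoxide dismutase, LOC542657 at -1.55 and LOC542021 at -1.32, with spot SDs of 0.47, 2.81 and 1.07. The other four cDNAs of sod3 were positive on bz2, so this cDNA did not speak for its gene. The cDNAs of ij1, at -0.65, and sus1, at -0.61, had spot SDs of 0.01 and 0.03.

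On mutator the 5 named cDNAs were negative, and 3 of them were alpha-tubulins. They were tua4 at -1.12, TUA1 at -1.12 and tua3 at -0.97, with spot SDs of 0.58, 0.02 and 0.07. The others were zap1 at -0.95 (spot SD 1.71), whose other cDNAs were positive, and EF1A at -0.75 (spot SD 0.67). An unnamed cDNA with a value of -2.85 and a spot SD of 0.08 was equally negative on mutator CA, at -3.19.

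On B,Pl the named cDNAs were CDPK, a calcium-dependent protein kinase, at 1.34 (spot SD 1.06), cr4, a receptor kinase of the leaf epidermis, at -0.82 (spot SD 0.68), and elfa3 at -0.85 (spot SD 0.03). The other cDNAs of CDPK on B,Pl were lower, and their gene median there was -0.14. On B,Pl CA replicates 1 and 2 the cr4 cDNA read -0.43 and -2.16, negative as at UV-B. The elfa3 cDNA read 0.57 and 0.54 there, and the CDPK cDNA -0.19 and -1.50.

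Tests of 1 genotype against the other two called 2 cDNAs for bz2, 0 for mutator and 2 for B,Pl of 5365, all unnamed. One of the 2 B,Pl calls was the cDNA at spot 3049 (-2.35, limma adjusted p 0.0392), where B,Pl read 0.09 and the difference came from the single bz2 spot. At an unadjusted p under 0.05 there were 145 (2.7%), 52 (0.969%) and 132 (2.46%). Tested with an F statistic for any difference among the 3 genotypes at UV-B, 0.0373% of cDNAs (2) were called, and 114 (2.12%) had unadjusted p values under 0.05. For a genotype difference in UV-B minus own CA, 1 of 5352 passed (0.0187%) and 59 had an unadjusted p under 0.05.

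The called cDNAs were few and rested on extreme spots. The cDNA that begins at spot 3049 read 4.57 on bz2 from 1 measured spot, the other 2 spots having no value, against 0.30 on mutator and 0.09 on B,Pl. Its bz2 value differed from the mean of the other two by 4.37 (SE 0.31, limma adjusted p 0.000209). Nearby cDNAs on that array, including pk8-a, also had single spots with values of 1.95 and 2.33. The cDNA at spot 10738 read 1.89, 2.45 and 11.4 on the 3 spots of the bz2 array, a difference from the others of 5.25 (SE 0.67, limma adjusted p 0.0316). The cDNA at spot 6997 read 3.23, 7.95 and 7.79 on B,Pl, against 0.10 on bz2 and 0.77 on mutator, with a difference of 5.89 (SE 0.64, limma adjusted p 0.0271). For the cDNAs at spots 10738 and 6997 all 3 spots were above those of the other arrays. The 2 closest spots read 1.89 and 2.45 for 10738, and 7.95 and 7.79 for 6997.

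Each genotype was also compared with its own CA arrays, which share the genotype but differ in place and UV-B. For bz2, 1 of 5393 cDNAs was called (0.0185%), the one at spot 3049, and 71 (1.32%) had an unadjusted p under 0.05. For mutator, 0 of 5373 were called by limma and 117 (2.18%) had an unadjusted p under 0.05. For B,Pl, 1 of 5380 was called (0.0186%), the one at spot 6997, and 274 (5.09%) had an unadjusted p under 0.05.

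No named cDNA passed the test of a genotype difference in UV-B minus own CA. At an unadjusted p under 0.05, 2 of 17 aquaporin cDNAs were positive for bz2 (background 0.742%), with a median of 0.66 and a median SE of 0.57. For mutator, 7 of 32 sam2 cDNAs and 3 of 19 INO1 cDNAs were positive (background 1.69%), with medians of 0.97 and 1.71 and median SEs of 0.56 and 0.86. For B,Pl, 3 of 8 photosynthesis cDNAs were positive (background 2.29%), with a median of 0.76 and a median SE of 0.46, and 3 of 12 ANT1 cDNAs were negative (background 2.81%), with a median of -0.63 and a median SE of 0.36. The bz2 and mutator values here rest on the dye titles of bz2 CA and mutator CA.

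The 2 arrays that resembled each other most shared a further set. Without asking anything of bz2, a choice made after seeing the data, 103 cDNAs were in the top 5% of both mutator and B,Pl and 64 in the bottom 5%. The mutator array measured 5388 cDNAs and the B,Pl array 5380. On bz2, 27 of the 103 were in the top 5%, 27 in the middle 50% and 15 in the bottom 5%, with a median of 0.05 against 1.10 on mutator and 1.22 on B,Pl. Their median was 0.75 on mutator CA, 0.31 and 0.07 on B,Pl CA, and 1.07 on b,pl without UV-B. Of the 64, 13 were in the bottom 5% on bz2, 21 in the middle 50% and 2 in the top 5%. The median of the 64 was -0.15 on bz2, against -0.86 on mutator and -1.14 on B,Pl.

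Of the 103, 20 were named, and beside INO1 (13 cDNAs) they included both Lhcb5-2 cDNAs and me2. The single me2 cDNA read -0.01, 0.77 and 1.20 on bz2, mutator and B,Pl, and 1.81 on b,pl without UV-B. Of the 64, 7 were named, among them 2 of 13 elfa2 cDNAs, 1 of 35 elfa3 cDNAs, grp1 and 1 of 3 tif4A2 cDNAs. The gene tif4A2 encodes an initiation factor. The grp1 cDNA read 0.24, -1.15 and -1.35, and -1.18 on b,pl without UV-B. That tif4A2 cDNA, taken for its rank and not for its gene, read -0.09, -0.99 and -1.34, and -0.98 on b,pl without UV-B. On the 2 b,pl UV-B arrays me2 read 0.95 and -0.60, grp1 -0.72 and -0.73, and tif4A2 0.49 and 0.27. For this tif4A2 cDNA the b,pl UV-B values were thus nearer to bz2 than to mutator and B,Pl, and for grp1 they lay between them. For me2 the b,pl UV-B arrays differed in sign.

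Against b,pl at the same UV-B treatment, the 3 genotypes together gave 0 of 5364 called cDNAs by limma and 486 (9.06%) at an unadjusted p under 0.05. The named cDNAs of smallest p were LOC542358, tua4, RGP and LOC542185, each with an adjusted p of 0.392. RGP, a reversibly glycosylated polypeptide of cell wall synthesis, read 1.95 on bz2, 0.84 on mutator and 0.22 on B,Pl, and its value against b,pl UV-B was 1.51 (SE 0.39). Of the 57 tua4 cDNAs 14 were negative and none positive in this comparison (background 5.16% negative and 3.9% positive), with a median of -0.67 and a median SE of 0.37.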

How the data were processed

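Per the file headers, the authors deposited log2 ratios of 2-colour arrays with no stated numerator, background correction or normalization. The base was taken as 2 because 16.3% of values beyond 2 in size have whole antilogs (within 0.0001) in base 2, against 0.0751% in base e. Consecutive triplets were averaged (median spot SD 0.0384, and 0.183 when triplets were shifted) and each array centred on its median. Tests used 27 arrays, a term per group and a dye term (8 residual df at most), with variances shrunk by limma 3.58.1 in R 4.3.3, Benjamini-Hochberg adjustment and two-sided p, and were tested on simulated data. Groups with 1 array are assumed to vary like the others. SDs of a gene's or list's median come from the same model. The number of arrays limits the precision. On 4 arrays the dye labels conflict, bz2 CA and mutator CA among them, and titles were followed. Platform gene names date from an old annotation, and 208 of 213 genes matched the Zm-B73-REFERENCE-NAM-5.0 table. Named cDNAs were up to 15 alike per direction, up to 8 standing out per genotype and direction, up to 5 of smallest p per test, and genes with 5 or more cDNAs, plus up to 3 unnamed ones. The me2, grp1, tif4A2, Lhcb5-2 and eno2 values and the pdh2 median were chosen after their values were seen. Members and lists were chosen with earlier results of these data known. Alternatives were spot rules, scaling, dye, signs, rank limits and leaving out arrays.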

Additional observations from a re-analysis of the deposited data

Results flagged for a closer look

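Genotype differences beyond the model's spread were called for the 2 cDNAs below, both without a gene name. The cDNA at spot 3049 differed among bz2, mutator and B,Pl at UV-B (F test in the limma model, adjusted p 0.000839) and also in UV-B minus own CA (adjusted p 0.0251). It read 4.57 on bz2 from a single spot, against 0.30 and 0.09, and neighbouring cDNAs on that array also lost spots. The cDNA at spot 6997 differed among the 3 genotypes at UV-B (adjusted p 0.0493), with 3 spots of 3.23, 7.95 and 7.79 on B,Pl and values of 0.10 and 0.77 on bz2 and mutator. The part of spot quality in these calls was not tested beyond the spot rules given with the processing alternatives.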

How the results depend on the processing

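Each count is of cDNAs at a limma adjusted p under 0.05, given in the order UV-B mean minus b,pl CA, minus own CA, minus b,pl UV-B, minus b,pl without UV-B, bz2, mutator and B,Pl against the other two, then bz2, mutator and B,Pl minus own CA, and the genotype F tests at UV-B and for UV-B minus own CA. As reported these were 1, 1, 0, 0, 2, 0, 2, 1, 0, 1, 2 and 1. With arrays scaled to the same spread they were 68, 2, 1, 1, 23, 1, 2, 17, 0, 2, 19 and 2. Without centring they were 2, 0, 0, 0, 3, 0, 3, 1, 0, 3, 5 and 0. With the median of the spots the first was 2, the third 1, bz2 1, B,Pl minus own CA 4 and the last 2. With all 3 spots required the first was 10, the second 0, bz2 1, B,Pl 1, bz2 minus own CA 0 and the F tests 1 and 0. Without the dye term the first was 2, the second 0, B,Pl 1 and B,Pl minus own CA 2. Read as group over other channel, the first, second, bz2, B,Pl, bz2 minus own CA and both F tests gave 0. With 2 PE arrays of doubtful dye turned in sign the first was 7, bz2 1 and B,Pl 1, and with b,pl UV-B replicate 2 turned the third was 1 and bz2 1. With bz2 CA and mutator CA turned, bz2 minus own CA was 2. With bz2 UV-B turned the first and second were 0, mutator 1 and bz2 minus own CA 2. Without the 3 arrays with the most missing spots the first was 5, the second 0, bz2 minus own CA 4, B,Pl minus own CA 2 and the F tests 4 and 2.

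Leaving out 1 array at a time gave 1 to 3, 0 to 1, 0 to 1, 0 to 0, 1 to 3, 0 to 0, 0 to 4, 1 to 2, 0 to 0, 1 to 3, 1 to 4 and 0 to 1. The first was 3 without B,Pl CA replicate 2, and B,Pl against the others was 4 without either b,pl PE array and 0 when one b,pl UV-B array was dropped, whichever it was. No paired analysis was possible because each of the 3 groups has 1 array and replicate numbers follow accession order.

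With a rank limit of 2.5% there were 7 positive and 2 negative alike cDNAs, 19 and 21 standing out on bz2, 7 negative on mutator, and 8 and 3 on B,Pl. With 10% there were 80 and 45 alike, then 99 and 104, 24 and 42, and 48 and 41. With own CA subtracted there were 4 and 6 alike, then 18 and 21, 24 and 40, and 58 and 88, and mutator with B,Pl correlated at 0.035 (Pearson) and 0.091 (Spearman). In that setting the dye effect cancels for bz2 and mutator, if their CA titles hold, but not for B,Pl. With the dye term subtracted 22 negative cDNAs were alike, and the correlations were 0.40 and 0.48 for bz2 with mutator and 0.22 and 0.30 for bz2 with B,Pl. With all 3 spots required the Pearson value of mutator with B,Pl was 0.58. Without bz2, 103 positive and 64 negative cDNAs were alike.

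Signs changed where an array was turned. With bz2 UV-B turned, the cDNA at spot 3049 read 2.22 for B,Pl against the others, -1.32 and -1.26 for the mean minus own CA and minus b,pl CA, -4.59 for bz2 minus own CA and -4.76 for bz2 against the others. For bz2 minus own CA, pk8-a read -2.12, MFS18 -0.97, sam2 -0.91 and his1a -1.06. For bz2 against the others, pk8-a read -2.44, ANT1 -0.12, the cDNA at spot 10738 -5.26 and LOC541942 -1.11, and for mutator pk8-a read 1.02. With bz2 CA and mutator CA turned, adh1 read -0.12 for the mean minus own CA and PIP2-1 -0.35 for bz2. For mutator minus own CA, EF1A read -3.33, adh1 -1.04 and sam2 -1.50 and -0.31. The causes of these differences between settings were not tested, except that turned signs follow from the setting itself. The number of arrays, 1 per genotype, limits all results.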
